A study of Mus musculus with 10 samples.

Results

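Genes of DNA replication and deoxynucleotide supply were followed in lung squamous cell carcinoma (SCC) of the mouse and in normal mouse lung. The 41 genes were taken by symbol from a count table of 24421 genes, and all 41 were found in it. They were divided by role into origin licensing (11 genes), helicase activation (6), polymerases and primase (8), the sliding clamp with its loader and strand joining (6), single-strand binding (2), nucleotide supply (4) and the copying of chromatin and DNA methylation (4). The SCC group held 5 libraries from tumours of NIH Swiss mice treated with NTCU, a nitrosourea carcinogen that is painted on the skin and gives squamous tumours in the lung. The normal lung group held 5 libraries from untreated mice of the same stock. Animals of both groups were wild type, and neither age nor sex is among the labels. Tissue was cut out of fixed and paraffin-embedded sections with a laser, which leaves little and fragmented RNA, and total RNA was sequenced with a stranded kit for very small inputs. The labels tie no library to an animal, so part of the spread behind each p-value may be technical, and where regions came from the same animal the p-values are too small.

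Before S phase the origin recognition complex, Cdc6 and Cdt1 load rings of the MCM proteins onto DNA, a step called licensing, and geminin holds Cdt1 back. In S phase Mcm10, Cdc45 and the GINS complex turn the MCM ring into an active helicase, primase and the polymerases copy the strands, and the clamp PCNA tethers the enzymes that extend and join them. Ribonucleotide reductase, thymidylate synthase and thymidine kinase supply the deoxynucleotides. Most of these genes are targets of E2F factors and are transcribed in dividing cells, while adult alveolar lung holds few of these and squamous tumours hold many in their basal layers.

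Total counts were between 1004105 and 3691806 in SCC and between 1457641 and 6817106 in normal lung. The labelled tissues were checked against defining markers. Of 7 squamous and basal genes, 7 were higher in SCC, where their summed level was 791 to 5900 CPM (counts scaled to a common library size), against 1.09 to 11.3 CPM in normal lung, and Krt6a, Krt13 and Dsg3 had no count in normal lung. All 6 alveolar epithelial genes were lower in SCC (sums of 376 to 752 CPM in SCC and of 6431 to 9818 CPM in normal lung). Lymphocyte markers, which also mark cells that can divide, did not differ by the test in any of 5 tested genes, and their sums overlapped, at 24.4 to 170 CPM in SCC and 57.7 to 177 CPM in normal lung. Of 6 genes of dividing cells 4 were higher in SCC, with sums of 101 to 649 CPM in SCC and of 39.6 to 80.1 CPM in normal lung. In captured tissue, fewer cells of a kind and less RNA per cell cannot be told apart. The SCC libraries also differed in a measure unrelated to replication. Counts on 1437 chemosensory receptor genes, which lung is not known to use at such breadth, stood at 3.47, 0.623, 3.45, 3.68 and 0.429 CPM per kb of coding length in SCC 1 to SCC 5, and at 0.0433 to 0.215 in normal lung. SCC 1, SCC 3 and SCC 4 thus carried far more of this signal than SCC 2 and SCC 5. Results are therefore given also with SCC 2 and SCC 5 alone against the 5 normal lung libraries, and after a background proportional to gene length and to this signal was subtracted.

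Replication genes were on the whole low in these libraries, and those that moved were higher in SCC. The median member had 24 counts in an SCC library and 14 in a normal lung library. The filter on low counts passed 31 of the 41 members. Of these 31, 9 were higher in SCC at an adjusted p under 0.05 (edgeR quasi-likelihood test, Benjamini-Hochberg adjustment over 13203 genes), namely Tyms, Cdc6, Pola2, Uhrf1, Pole, Mcm10, Mcm5, Mcm7 and Chaf1a. No member was lower. Over all tested genes 12.5% were higher and 8.68% were lower, against 29.0% and 0 among the tested members. The median log2 fold change, SCC over normal lung, was 1.04 over the tested members and 0.07 over all tested genes. All fold changes are log2 and SCC over normal lung, and in parentheses the value before an SE or an adjusted p is such a fold change. Levels in each SCC library lay above each normal lung library for 7 of the 31, where 8.04% of all tested genes did so. In mean CPM 35 of the 41 members were higher in SCC, and Gins4, Pcna, Rfc3, Prim2, Pold2 and Lig1 were lower. The same share over all genes was not computed. With no filter on low counts the median fold change of all genes was 0.71, beside 0.69 for the members, so the count does not set the members apart. For 10 members the estimated background was over 50% of the SCC counts.

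The count of members depended on which SCC libraries were used. With SCC 2 and SCC 5 alone 1 of 38 tested members was higher, Tyms, beside 4.14% of all tested genes, and the median of the members was 0.91. With SCC 1, SCC 3 and SCC 4 alone, a choice made after seeing the data, 11 of 33 members were higher, beside 24.7% of all tested genes, and the median was 0.84. After background subtraction 3 of 24 were higher, Tyms, Pola2 and Uhrf1, beside 7.8% of all tested genes, with a median of 0.96. With no filter on low counts, where all 41 could be tested, 9 were higher, with Orc1 and Tk1 in place of Mcm7 and Chaf1a, which is 22.0% of the members beside 23.9% of all genes tested, and the medians were 0.69 and 0.71, so that there the members did not stand above the rest. The DESeq2 Wald test, also with no such filter, called 15 of 41 higher beside 27.4% of genes. By limma-voom, with the filter, 14 of 31 members were higher, beside 3259 of the 13203 tested genes. The median of the members was thus positive in each of these fits, while its distance to the median of all genes was not kept without the filter.

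**Figure D1:**
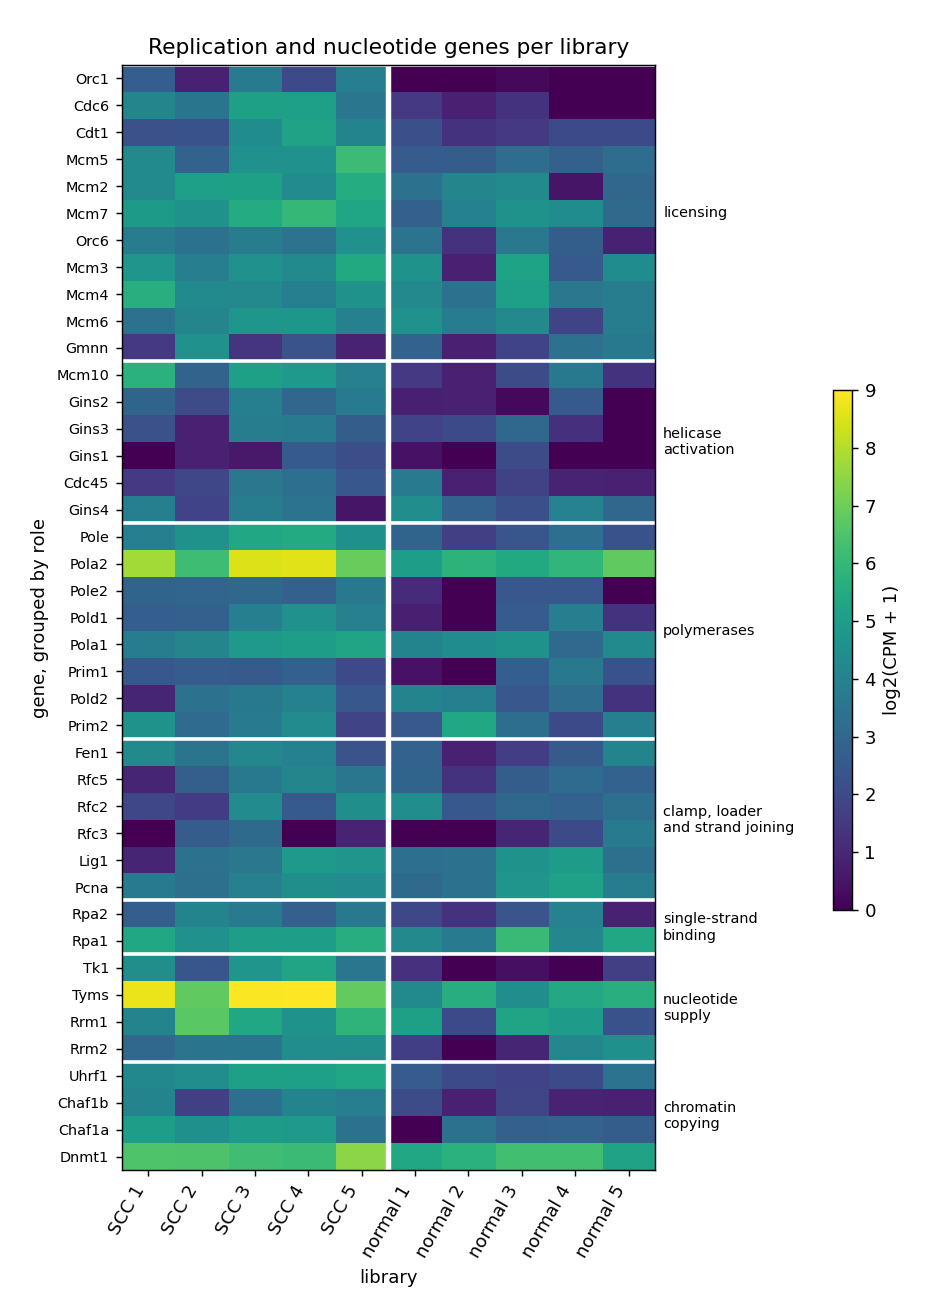
Level of the 41 genes as log2(CPM + 1) in each library, with the SCC libraries on the left, the normal lung libraries on the right, and genes grouped by role. Tyms and Pola2 are the brightest rows and are brightest in SCC 1, SCC 3 and SCC 4, Orc1 is near 0 in the normal lung libraries, and most other rows are dim in both groups.

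Promoters were compared because E2F sites are the classic shared feature of these genes. RefSeq promoter windows (GRCm38.p6, 250 bases before to 50 after a start) were matched by symbol for 33 of the 41 members. They were searched on both strands for 3 forms of the E2F site (TTTGGCGC, TTTCCCGC and TTTCGCGC), for the CCAAT box (CCAAT) and for the CHR element of mitotic genes (TTTGAA). At least 1 E2F form was in a window of 15 of the 33 members, which is 45.5%, beside 2.12% of the 27025 genes in the table. A CCAAT box was in 22 of 33 (66.7%, beside 41.1% of genes) and the CHR letters in 6 of 33 (18.2%, beside 20.2%). An E2F form occurred in 4 of the 8 called members with a window (Cdc6, Mcm5, Mcm7 and Uhrf1). Tyms and Pola2, the most abundant members in SCC, held none of the 5 motifs in this window. These matches describe letters, not bound sites. The windows of Tyms, the member of smallest p, of Pcna, whose level did not differ by the test, and of Mcm5, Mcm7 and Cdc6, which hold E2F forms, (Mcm7 by the first of its 2) are printed 5′ to 3′ with motif letters in capitals. The choice of the last 4 was made after the motifs were seen. Gins4, the member of smallest p among those with a negative fold change, is named only. In Mcm5 the TTTCGCGC match overlaps TTTGGCGC on the other strand, and in Mcm7 it overlaps a CCAAT box. CCAAT on the other strand reads ATTGG, and TTTCCCGC reads GCGGGAAA.
Tyms (chr5:30073576-30073875, minus strand): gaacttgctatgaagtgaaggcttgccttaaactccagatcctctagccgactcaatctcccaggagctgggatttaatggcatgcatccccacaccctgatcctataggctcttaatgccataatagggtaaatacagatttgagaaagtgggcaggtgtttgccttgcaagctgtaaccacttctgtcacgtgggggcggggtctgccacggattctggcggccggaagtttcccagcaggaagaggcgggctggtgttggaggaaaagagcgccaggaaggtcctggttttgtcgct
Pcna (chr2:132253131-132253430, minus strand): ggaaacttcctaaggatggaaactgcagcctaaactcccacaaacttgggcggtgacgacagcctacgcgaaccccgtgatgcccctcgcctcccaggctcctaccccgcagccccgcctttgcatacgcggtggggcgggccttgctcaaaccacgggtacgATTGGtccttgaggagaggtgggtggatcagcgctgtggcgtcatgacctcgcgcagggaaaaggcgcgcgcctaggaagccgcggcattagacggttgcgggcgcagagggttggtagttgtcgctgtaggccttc
Mcm5 (chr8:75109259-75109558, plus strand): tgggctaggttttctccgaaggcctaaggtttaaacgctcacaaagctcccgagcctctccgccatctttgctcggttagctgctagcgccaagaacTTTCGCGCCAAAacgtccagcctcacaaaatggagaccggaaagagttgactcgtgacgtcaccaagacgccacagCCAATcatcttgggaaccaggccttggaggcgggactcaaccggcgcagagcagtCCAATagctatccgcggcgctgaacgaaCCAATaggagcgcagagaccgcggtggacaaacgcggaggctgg
Mcm7 (chr5:138171834-138172133, minus strand): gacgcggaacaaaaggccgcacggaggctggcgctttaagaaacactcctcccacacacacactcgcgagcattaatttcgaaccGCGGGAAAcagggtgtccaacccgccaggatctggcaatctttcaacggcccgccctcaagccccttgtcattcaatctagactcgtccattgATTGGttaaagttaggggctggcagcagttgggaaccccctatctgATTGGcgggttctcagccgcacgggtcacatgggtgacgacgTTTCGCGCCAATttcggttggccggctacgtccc
Cdc6 (chr11:98907901-98908200, plus strand): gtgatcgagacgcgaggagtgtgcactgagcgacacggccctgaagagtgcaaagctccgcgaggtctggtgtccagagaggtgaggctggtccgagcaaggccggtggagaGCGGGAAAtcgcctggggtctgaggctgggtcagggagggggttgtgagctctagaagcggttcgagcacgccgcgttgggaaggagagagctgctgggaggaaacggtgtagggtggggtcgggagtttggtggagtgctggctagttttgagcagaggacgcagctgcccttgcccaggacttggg

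Licensing genes held 3 of the called members, out of 8 tested. Cdc6, the ATPase that helps the origin recognition complex load the MCM ring (chromosome 11, 98907801 to 98923940, GRCm38), whose window holds an E2F form, read 16.5, 10.2, 33.3, 33.1 and 10.5 CPM in SCC 1 to SCC 5, against 1.81, 0.762, 1.49, 0 and 0 CPM in normal lung 1 to 5. Each SCC library lay above each normal library. The log2 fold change was 4.41 (SE 0.92, adjusted p = 0.00102), and it was 3.43 with SCC 2 and SCC 5 alone (adjusted p = 0.102). The estimated background amounted to 45.9% of its SCC counts, and after subtraction the gene was too low to be tested. Mcm5, a subunit of the MCM ring (chromosome 8, 75109569 to 75128439), had 18.3, 6.11, 22.4, 22.4 and 70.2 CPM in SCC, against 5.08, 5.33, 8.32, 5.70 and 8.32 CPM in normal lung. SCC 5 was the highest and SCC 2 lay within the normal range. The log2 fold change was 2.08 (SE 0.67, adjusted p = 0.026), and 2.48 with SCC 2 and SCC 5 alone (adjusted p = 0.0622). The call was lost without SCC 5 (1.34, adjusted p = 0.178) and without normal lung 1, 2 or 4 (1.83 to 1.9). Mcm7, another subunit (chromosome 5, 138164583 to 138172422), averaged 40.0 ± 15.7 CPM in SCC and 14.1 ± 7.42 CPM in normal lung (SD, n = 5 each), a log2 fold change of 1.48 (SE 0.52, adjusted p = 0.0429). Its lowest SCC library, at 22.9 CPM, stood level with its highest normal one, also at 22.9 CPM when rounded. Its exons overlap those of Ap4m1 and Cops6, and the call was lost with only SCC 2 and SCC 5 (1.08, adjusted p = 0.432) and without SCC 1, 3 or 4 or normal lung 1, 2, 4 or 5 in turn (1.07 to 1.53). It was also lost with no filter (1.03, adjusted p = 0.149), with a filter at 1 CPM (1.34, adjusted p = 0.0611) and once background was subtracted (1.85, adjusted p = 0.0529).

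The 4 other MCM ring genes did not pass the edgeR test. Mcm2 averaged 30.2 ± 11.5 CPM in SCC and 10.3 ± 7.27 CPM in normal lung (1.55, SE 0.65, adjusted p = 0.0967), and it was past the threshold in DESeq2 (adjusted p = 0.0387) and in limma-voom (1.85, adjusted p = 0.0177). Mcm3, Mcm4 and Mcm6 had fold changes of 0.52, 0.52 and 0.40, with adjusted p of 0.64, 0.573 and 0.718. Mcm6, the tested licensing gene of largest p, had 9.15, 16.0, 25.7, 26.3 and 14.5 CPM in SCC, against 22.5, 13, 18.0, 2.63 and 12.9 CPM in normal lung, and the groups overlapped. The ring holds its 6 subunits in equal number. Per kb of exon, their mean levels in SCC were 8.94 (Mcm2), 8.14 (Mcm3), 6.82 (Mcm4), 8.06 (Mcm5), 4.19 (Mcm6) and 13.5 CPM per kb (Mcm7), and in normal lung 3.04, 5.57, 4.66, 1.895, 3.15 and 4.76 CPM per kb in the same gene order. The SDs were 1.70 to 7.11 CPM per kb in SCC and 0.472 to 4.72 CPM per kb in normal lung, so most neighbours in this order differed by less than their spread.

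Orc6, a small subunit of the origin recognition complex, had a log2 fold change of 1.17 (adjusted p = 0.318). Orc1, its largest subunit (chromosome 4, 108579423 to 108614833), was too low to pass the filter. It held 65 counts in SCC and 1 count in normal lung. Its level was 5.49, 0.763, 12.0, 2.92 and 13.6 CPM in SCC, against 0, 0, 0.149, 0 and 0 CPM in normal lung, so the groups did not overlap. The ratio of the pooled levels was 92.1 (95% exact counting interval 16.0 to 3694), and with no filter the gene was past the threshold (edgeR adjusted p = 0.00228). The estimated background amounted to 78.8% of its SCC counts, and the gene Gm12743 overlaps its exons. Cdt1, which brings the MCM ring to the origin, had 3.66, 3.82, 19.7, 35.1 and 15.8 CPM in SCC, against 3.63, 1.52, 1.78, 3.07 and 3.03 CPM in normal lung. SCC 1 and SCC 2 lay just above the highest normal library, and with no filter the edgeR adjusted p was 0.0721. Gmnn, which encodes geminin, the inhibitor of Cdt1, stood at 22.4 CPM in SCC 2 and at 0.877 to 3.90 CPM in the other SCC libraries, against 0.762 to 11.3 CPM in normal lung, and the groups overlapped (edgeR adjusted p = 0.931 with no filter). Orc1, Cdt1 and Gmnn are described in full because of their role, a choice made after their values were seen.

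Among the genes that activate the helicase, Mcm10 passed the test. Mcm10, a factor that starts unwinding at the loaded ring (chromosome 2, 4989714 to 5012791), had 53.1, 6.36, 33.3, 28.2 and 14.0 CPM in SCC, against 1.81, 0.762, 3.27, 11.4 and 1.51 CPM in normal lung. SCC 2 lay below normal lung 4. Its log2 fold change was 2.78 (SE 0.78, adjusted p = 0.0115), and it was 1.36 with only SCC 2 and SCC 5 (adjusted p = 0.546), or 2.34 without SCC 1 (adjusted p = 0.0583). The estimated background amounted to 41.1% of its SCC counts, and after subtraction the call was lost (2.89, adjusted p = 0.0981). Gins4, a subunit of the GINS complex and the other tested gene of this role, had 13.7, 2.54, 13.1, 9.74 and 0.438 CPM in SCC, against 20.3, 6.10, 3.57, 14.9 and 6.81 CPM in normal lung (fold change -0.42, SE 0.84, adjusted p = 0.778). The other GINS subunits Gins1, Gins2 and Gins3 and the helicase cofactor Cdc45 did not pass the filter, with 17 to 80 counts in the whole SCC group and 15 to 62 in normal lung. The estimated background amounted to 70.04% or more of the SCC counts of each of them. Gins2 was called by DESeq2 with no filter (adjusted p = 0.0235), with a ratio of pooled levels of 7.56 (95% exact counting interval 4.32 to 14.1).

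By edgeR 2 of the polymerase genes rose and 6 did not pass the test. Limma-voom, which called 3259 genes higher in all against 1645 by edgeR, called 4 of the 8. It added Pold1 (2.76, adjusted p = 0.00889) and Pole2 (2.31, adjusted p = 0.0321). Of their SCC counts, 53.9% (Pold1) and 37.2% (Pole2) were estimated background, and after subtraction neither passed the filter. Exons of Pole2 are overlapped by Gm49384. Pola2, the regulatory subunit of polymerase alpha, which starts each strand (chromosome 19, 5940542 to 5964202), had 214, 73.3, 371, 388 and 118 CPM in SCC, against 31.2, 55.6, 43.7, 59.6 and 111 CPM in normal lung. SCC 1, SCC 3 and SCC 4 were the high libraries, and SCC 2 lay within the normal range. SCC exceeded normal lung by a log2 fold change of 1.95 (SE 0.45, adjusted p = 0.00261), but 0.65 with SCC 2 and SCC 5 alone (adjusted p = 0.461). Its partner Pola1, the catalytic subunit, averaged 25.1 ± 10.4 CPM in SCC and 16.9 ± 6.05 CPM in normal lung (0.57, SE 0.55, adjusted p = 0.517). Pole, the catalytic subunit of the leading strand polymerase epsilon (chromosome 5, 110286306 to 110337474), had 13.7, 22.9, 41.5, 43.8 and 21.9 CPM in SCC, against 6.53, 2.29, 4.31, 8.77 and 3.78 CPM in normal lung. The groups did not overlap, and the log2 fold change was 2.45 (SE 0.64, adjusted p = 0.00681), or 2.07 with SCC 2 and SCC 5 alone (adjusted p = 0.15). The estimated background amounted to 45.7% of its SCC counts, and after subtraction the call was lost (2.19, adjusted p = 0.164). Gm15792 overlaps its exons. Pole2, the second subunit of that enzyme, had 5.84 to 11.4 CPM in SCC, against 0 to 4.46 CPM in normal lung, without overlap (1.77, SE 0.95, adjusted p = 0.201). Pold1 and Pold2, subunits of the lagging strand polymerase delta, had fold changes of 1.49 (adjusted p = 0.273) and -0.11 (adjusted p = 0.946). Pold2, the polymerase gene of largest p, stood at 0.915, 9.16, 11.5, 14.6 and 4.38 CPM in SCC, against 15.6, 13.7, 4.46, 8.33 and 1.51 CPM in normal lung. The primase subunits Prim1 and Prim2, which lay the RNA primer, were at 0.12 and -0.11 (adjusted p = 0.946 and 0.938), and both overlapped between the groups.

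None of the 5 tested clamp, loader and strand joining genes passed the edgeR test, and their median log2 fold change was 0.09, against 0.07 for all tested genes. Pcna, the clamp itself and a common protein marker of dividing cells (chromosome 2, 132249162 to 132253314), had 11.9, 8.91, 14.2, 21.4 and 19.3 CPM in SCC, against 7.62, 9.15, 25.1, 34.2 and 12.9 CPM in normal lung. The SCC range lay inside the normal range (-0.25, SE 0.62, adjusted p = 0.827). Fen1, the nuclease that trims the flaps between lagging strand fragments, had 18.3, 9.92, 16.9, 14.6 and 3.95 CPM in SCC, against 6.17, 0.762, 2.08, 4.82 and 15.9 CPM in normal lung (1.11, SE 0.82, adjusted p = 0.376), and limma-voom called it (1.89, adjusted p = 0.0178). Lig1, the ligase that joins these fragments, averaged 14.9 ± 11.4 CPM in SCC and 16.0 ± 9.84 CPM in normal lung (-0.12, adjusted p = 0.93). Rfc5, a subunit of the clamp loader, had 0.915, 5.6, 11.5, 16.6 and 10.5 CPM in SCC, against 6.53, 1.52, 5.35, 7.89 and 6.05 CPM in normal lung (0.70, adjusted p = 0.611). Rfc2, another subunit, had 2.74, 2.04, 19.1, 4.87 and 21.5 CPM in SCC, against 20.3, 4.57, 7.28, 6.14 and 9.08 CPM in normal lung (0.09, adjusted p = 0.952). Most SCC counts of Rfc5 (64.7%) and Rfc2 (84.9%) were estimated background, and after subtraction neither passed the filter. For Pcna, Fen1 and Lig1 the share was 18.4%, 36.1% and 41.5%. Rfc3 did not pass the filter, with no count in 2 SCC libraries and in 2 normal ones. The single-strand binding genes did not pass the test either. Rpa1 had 40.3, 22.4, 32.2, 32.1 and 47.8 CPM in SCC, against 17.8, 12.2, 66.6, 17.1 and 40.1 CPM in normal lung (0.17, SE 0.50, adjusted p = 0.853), and Rpa2 was at 1.04 (SE 0.84, adjusted p = 0.422), with 5.49, 15.8, 12.0, 5.84 and 11.4 CPM in SCC and 2.90, 1.52, 4.16, 14.9 and 0.757 CPM in normal lung.

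**Figure D2:**
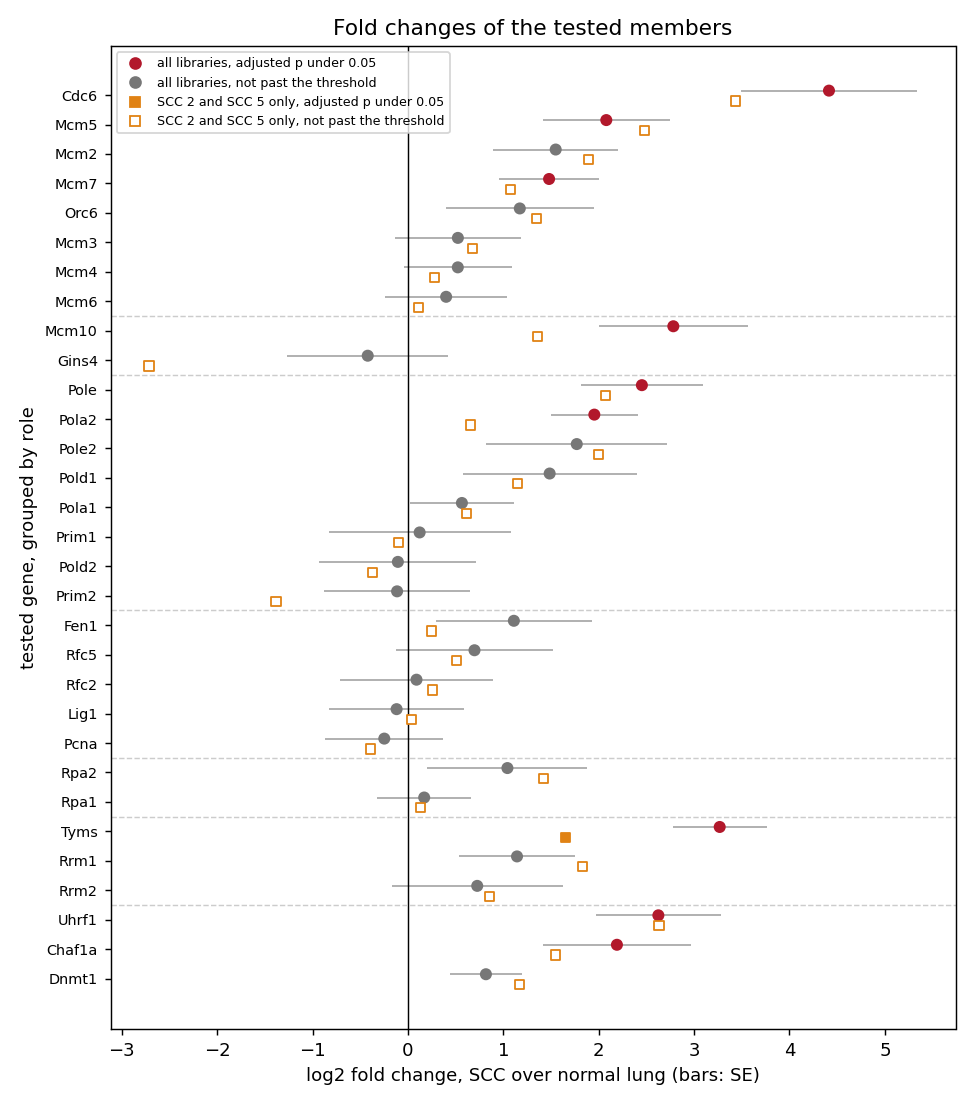
Log2 fold change, SCC over normal lung, of the 31 tested members in their role groups, with bars for the SE. Circles use all libraries (red past the threshold, grey not) and squares SCC 2 and SCC 5 alone, where Tyms is the 1 filled square; the 9 red circles lie between 1.48 and 4.41.

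Tyms gave the smallest p of all members. Tyms encodes thymidylate synthase, which makes dTMP from dUMP (chromosome 5, 30058202 to 30073617). It had 429, 112, 487, 557 and 113 CPM in SCC, against 18.5, 48.0, 20.1, 42.5 and 48.4 CPM in normal lung. Each SCC library lay above each normal library, and SCC 1, SCC 3 and SCC 4 stood at about the same high level, well above SCC 2 and SCC 5. The log2 fold change was 3.27 (SE 0.49, adjusted p = 3.11e-05), 1.65 with only SCC 2 and SCC 5 (adjusted p = 0.0273), or 3.59 with SCC 1, SCC 3 and SCC 4 alone. Tyms and Pola2 were thus both highest in the 3 SCC libraries of high receptor signal, while the estimated background amounted to 2.04% and 2.61% of their SCC counts. Whether something tied to that signal other than a background proportional to length adds to them was not tested. Both were also the most abundant members per length in SCC, at 107 ± 67.1 CPM per kb for Tyms and 81.2 ± 49.9 CPM per kb for Pola2 (SD, n = 5 each), ahead of Dnmt1 at 15.8 ± 6.71 CPM per kb. In normal lung Pola2 (21.02 ± 10.7 CPM per kb) came first, Pcna (11.7 ± 7.55) next and Tyms (11.2 ± 4.74) after it, and Pcna and Tyms differed by less than their spread. Together Tyms and Pola2 made up 20.5% to 53.8% of the summed CPM of the 41 members in SCC libraries and 11.5% to 33.3% in normal ones.

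Tk1, the salvage enzyme that phosphorylates thymidine (chromosome 11, 117815526 to 117826092), did not pass the filter on low counts. It had 21, 4.33, 25.1, 37.0 and 10.5 CPM in SCC, against 1.45, 0, 0.297, 0 and 2.27 CPM in normal lung. The groups did not overlap, and the ratio of the pooled levels was 23.3 (95% exact counting interval 11.9 to 52.0, which covers counting error only). With no filter the edgeR adjusted p was 0.00128, and with SCC 2 and SCC 5 alone it was 0.173. Its exons overlap those of Afmid. Rrm1 and Rrm2, the large and small subunits of ribonucleotide reductase, did not pass the edgeR test. Rrm1 had 15.6, 103, 40.4, 23.4 and 57 CPM in SCC, against 33.4, 3.05, 37.2, 29.4 and 3.78 CPM in normal lung (1.14, SE 0.60, adjusted p = 0.196), with SCC 2 and SCC 5 the high libraries. Rrm2 had 7.32, 9.92, 10.4, 20.5 and 20.6 CPM in SCC, against 2.18, 0, 0.892, 17.1 and 21.9 CPM in normal lung, and its normal libraries covered the whole SCC range (0.73, SE 0.89, adjusted p = 0.629). By limma-voom, Rrm2 was called at 2.28 (adjusted p = 0.0191).

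Of the genes that copy chromatin, Uhrf1 and Chaf1a rose. Uhrf1 reads half-methylated DNA behind the fork and brings Dnmt1 to it (chromosome 17, 56303321 to 56323486). It had 17.4, 20.4, 33.9, 33.1 and 38.1 CPM in SCC, against 5.08, 3.05, 2.53, 3.07 and 9.84 CPM in normal lung, without overlap. The log2 fold change was 2.63 (SE 0.65, adjusted p = 0.0045), and it had the same size, 2.63, with SCC 2 and SCC 5 alone, just short of the threshold (adjusted p = 0.0547). It was 2.71 after background subtraction (adjusted p = 0.0312). Chaf1a, the large subunit of the histone chaperone CAF-1 (chromosome 17, 56040439 to 56072289), had 32, 21.9, 29.5, 27.3 and 9.21 CPM in SCC, against 0, 9.15, 5.8, 6.14 and 5.30 CPM in normal lung. SCC 5 exceeded the highest normal library by a narrow margin. The log2 fold change was 2.19 (SE 0.77, adjusted p = 0.0438), or 1.55 with only SCC 2 and SCC 5 (adjusted p = 0.443), and the call was lost when any 1 library other than SCC 5 was left out (1.68 to 2.20). It was also lost with no filter (1.76, adjusted p = 0.0639) and once background was subtracted (1.77, adjusted p = 0.258). The estimated background amounted to 42% of its SCC counts, and Ubxn6 overlaps its exons. Chaf1b, the second CAF-1 subunit, did not pass the filter and averaged 11.2 ± 5.69 CPM in SCC and 1.67 ± 1.21 CPM in normal lung (edgeR adjusted p = 0.0899 with no filter). Dnmt1, the maintenance DNA methyltransferase, had 90.6, 88.0, 75.4, 69.2 and 173 CPM in SCC, against 39.9, 53.3, 76.4, 75.8 and 35.6 CPM in normal lung. Its log2 fold change was 0.82 (SE 0.38, adjusted p = 0.13).

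**Figure D3:**
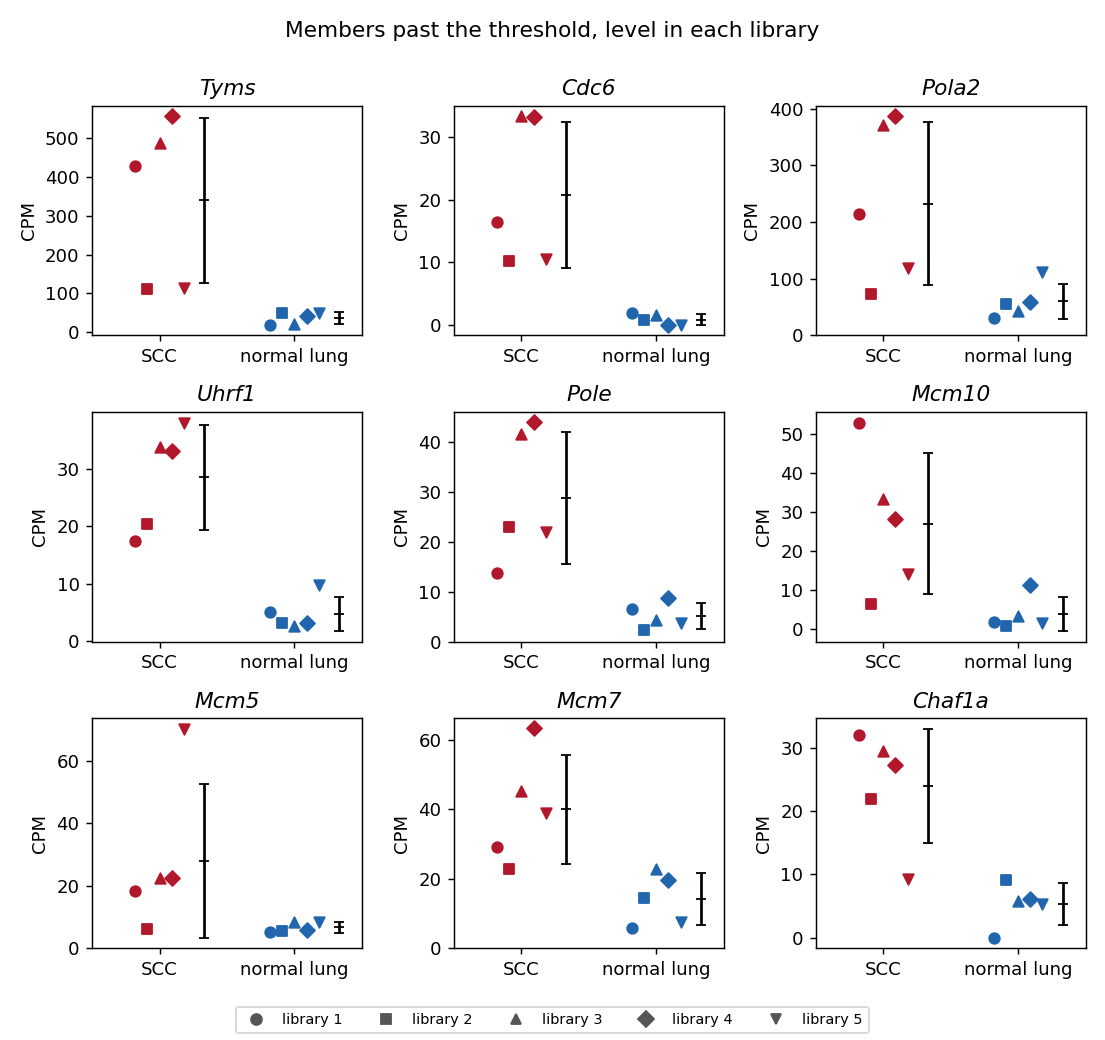
CPM of the 9 members past the threshold in each library, SCC in red on the left and normal lung in blue on the right of each panel, where the marker shape gives the library number and the black mark with its bar beside each group is the mean with the SD. Tyms and Pola2 reach 557 and 388 CPM in SCC 4, while the other 7 stay at or below 70.2 CPM.

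Summed over roles, the groups separated for licensing (156 to 300 CPM in SCC, 61.8 to 154 CPM in normal lung), nucleotide supply (201 to 638 CPM in SCC, 51.1 to 88.99 CPM in normal lung) and chromatin copying (133 to 234 CPM in SCC, 48.2 to 87.4 CPM in normal lung). They overlapped for helicase activation, polymerases, clamp and joining, and single-strand binding. These sums are before background subtraction, and whether the groups separate after it was not tested. Of the SCC counts, estimated background made up 14.0% (Mcm7) to 78.8% (Orc1) among licensing members. Among chromatin copying members it made up 10.2% (Dnmt1) to 42% (Chaf1a). It was 26.5% to 28.3% of all counts in SCC 1, SCC 3 and SCC 4. Once it was subtracted, 0 of 7 tested licensing members were called. Tyms made up most of the nucleotide supply sum in SCC (340 CPM of a mean sum of 421 CPM). Of the other genes of that role, Rrm1 and Rrm2 each overlapped between the groups and Tk1 did not. Without Tyms and Pola2 the other members summed to 575 to 897 CPM in SCC and to 259 to 491 CPM in normal lung. This sum also includes the estimated background, and whether the groups separate without that background was not tested. With Tyms and Pola2 left out the highest SCC library was SCC 5, at 897 CPM, whereas with both included it was SCC 4, at 1757 CPM. Among the SCC libraries alone, 15 of the 41 members had their highest level in SCC 4, 12 in SCC 5, 6 in SCC 1, 5 in SCC 3 and 3 in SCC 2.

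**Figure D4:**
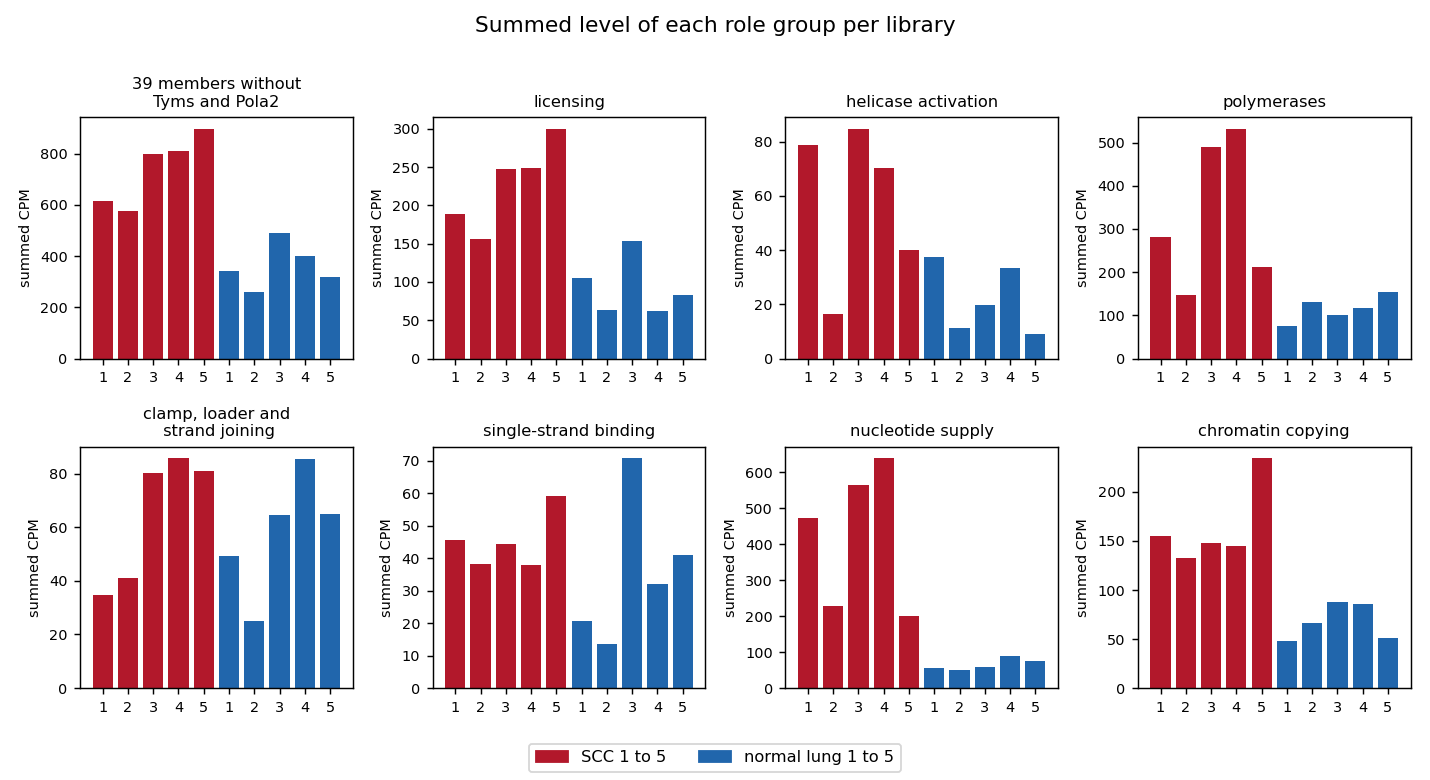
Summed CPM per library, before background subtraction, of the members of each role and of all members without Tyms and Pola2. Red bars are SCC 1 to 5 and blue bars normal lung 1 to 5. The polymerase and nucleotide supply sums are highest in SCC 3 and SCC 4, and the clamp sums of the groups overlap.

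Ratios between paired genes depend little on how a library is scaled, and 8 were compared between the groups with exact two-sided permutation tests over all relabelings of the libraries, adjusted over the 8. They are log2 ratios of CPM with a prior count of 2 and are not corrected for length, so only their difference between the groups is read. None passed after adjustment. By itself no ratio could have passed, since the smallest exact p the design allows, 0.00794, gives an adjusted p of 0.0635 unless other ratios are also small in p. The ratio of Tk1 to its mitochondrial counterpart Tk2 was 0.10 ± 0.91 in SCC and -4.17 ± 1.29 in normal lung (SD, n = 5 each), without overlap, a difference of 4.27 (exact p = 0.00794, the smallest the design allows, adjusted p = 0.0635). Tk1 had 9 counts in all of normal lung and none in 2 libraries there, so its normal value rests in part on the prior count. The ratio of Orc1 to Orc2, another subunit of its complex, was -2.32 ± 1.07 in SCC and -4.68 ± 1.22 in normal lung (exact p = 0.0159, adjusted p = 0.0635). With 1 Orc1 count in all of normal lung, the value there rests on the prior count and on Orc2. In SCC 78.8% of the Orc1 counts were estimated background. That of Rrm2 to Rrm2b, the subunit used outside S phase, was -0.99 ± 0.92 in SCC and -3.71 ± 1.97 in normal lung (exact p = 0.0317, adjusted p = 0.0847). Gmnn over Cdt1 was -1.54 ± 2.39 in SCC and 0.70 ± 0.88 in normal lung (exact permutation p = 0.0873, adjusted p = 0.175), with SCC 2, at 2.33, apart from the other SCC libraries. Rrm2 over Rrm1 differed by 0.18, Pole over Pold1 by 0.36, Dnmt1 over Dnmt3a by 0.73 and Chaf1a over Chaf1b by 0.11, with adjusted p from exact permutation of 0.178 to 0.952.

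**Figure D5:**
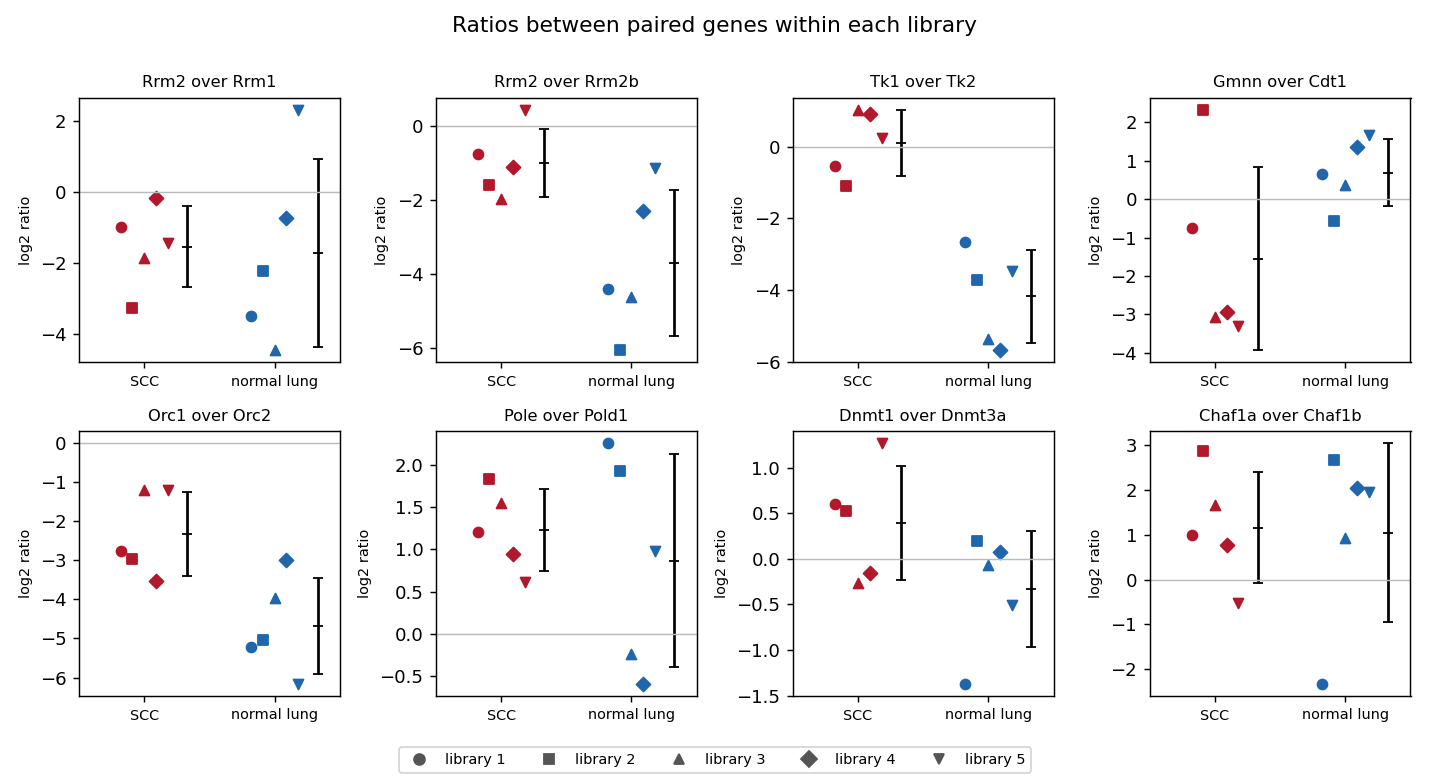
Log2 ratios between 8 gene pairs in each library, SCC in red on the left and normal lung in blue on the right of each panel, where the black mark with its bar beside each group is the mean with the SD. The groups do not overlap for Tk1 over Tk2, while the Rrm2 over Rrm1 ratios of normal lung spread from -4.48 to 2.31 and cover those of SCC.

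The rest of the pathway was read from 6 further lists with 89 genes, of which 83 were tested. In all 13 were higher and 3 lower, with a median of 0.41, again beside 12.5% higher and 8.68% lower over all tested genes. With only SCC 2 and SCC 5, 5 of 84 tested genes were higher and 2 lower, beside 4.14% of all tested genes higher. After subtraction of background 74 were tested. Of these, 4 were higher (Adss, Dctd, Pfas and Ticrr) and 2 lower (Impdh1 and Tfdp2), beside 7.8% of all tested genes higher. Of 11 other licensing and firing genes 2 were higher. Recql4, a helicase of replication initiation, averaged 17.1 ± 10.03 CPM in SCC and 0.531 ± 0.369 CPM in normal lung (4.88, SE 0.95, adjusted p = 0.000494). Ticrr, which brings Cdc45 to origins, averaged 59.0 ± 40.1 CPM in SCC and 4.45 ± 3.68 CPM in normal lung (3.85, SE 0.69, adjusted p = 0.000222). Neither was called with only SCC 2 and SCC 5, where Recql4 was at 4.04 (adjusted p = 0.0518) and Ticrr at 1.92 (adjusted p = 0.28). Of 20 other fork genes 4 were higher, Clspn (2.61), Top2a (2.04), Chtf18 (3.77) and Dna2 (2.13). With only SCC 2 and SCC 5 the calls of Clspn (1.98, adjusted p = 0.271) and Chtf18 (3.07, adjusted p = 0.228) were lost. Dna2, a nuclease and helicase of fragment processing, then turned to -0.84 (adjusted p = 0.732), with 5.34 CPM in SCC 2, 3.51 CPM in SCC 5 and 25.3 to 104 CPM in the other SCC libraries, against 2.63 to 13.8 CPM in normal lung. Top2a, the topoisomerase that untangles copied strands, stood at 113 CPM in SCC 5 and at 18.3 to 33.3 CPM in the other SCC libraries, against 3.05 to 14.7 CPM in normal lung. It was still past the threshold with only SCC 2 and SCC 5 (2.67, adjusted p = 0.0126), but not after background subtraction (1.93, adjusted p = 0.168).

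Of 14 other deoxynucleotide genes 3 were higher and none lower, and 2 of the 3 are described. Dctd, a deaminase that makes the dUMP used by thymidylate synthase, had 14.6, 10.9, 18.0, 12.7 and 14.9 CPM in SCC, against 2.54, 0.762, 0.743, 0.877 and 0 CPM in normal lung (3.71, SE 0.90, adjusted p = 0.00357). Shmt1, which loads one-carbon units onto folate, was at 3.49 (SE 0.94, adjusted p = 0.00822). For both genes every SCC library lay above every normal one. With only SCC 2 and SCC 5, Shmt1 (3.71, adjusted p = 0.0464) was again called, and Dctd was not (3.56, adjusted p = 0.0617). Of 17 de novo base synthesis genes 1 was higher and 1 lower. Pfas, an enzyme of purine synthesis, rose by 1.9 (SE 0.46, adjusted p = 0.004). Impdh1, which commits purines to guanine nucleotides, had 3.66, 27.2, 20.8, 27.3 and 25.0 CPM in SCC, against 99.0, 94.5, 72.8, 145 and 99.1 CPM in normal lung (-2.28, SE 0.44, adjusted p = 0.000457). With only SCC 2 and SCC 5, both Pfas (2.20, adjusted p = 0.016) and Impdh1 (-1.99, adjusted p = 0.00693) were again called.

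None of 8 other chromatin copying genes was called, Nasp (1.28, adjusted p = 0.152) and Dnmt3b (1.38, adjusted p = 0.239) having the smallest p. Of 13 E2F and pocket protein genes 3 were higher and 2 lower. E2f7, a repressor of the E2F family, averaged 28.9 ± 18.1 CPM in SCC and 1.604 ± 1.16 CPM in normal lung (4.05, SE 0.81, adjusted p = 0.000622), and E2f8 and E2f3 were at 1.83 and 1.89 (adjusted p = 0.04 and 0.0124). None of these 3 was called with SCC 2 and SCC 5 alone (adjusted p = 0.154 for E2f7). Tfdp2, a dimer partner of E2F, averaged 49.2 ± 12.7 CPM in SCC and 127 ± 21.7 CPM in normal lung (-1.38, SE 0.35, adjusted p = 0.00527) and was again called with only SCC 2 and SCC 5 (-1.57, adjusted p = 0.0169). Rbl2, a pocket protein, was at -1.12 (adjusted p = 0.039).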

How the data were processed

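RNA from laser-captured regions was measured in 10 libraries, 5 of SCC and 5 of normal lung. The authors deposited raw read counts per gene symbol, 1 column per library, with no normalization. Per the submitters' processing notes, the tools were TopHat2 2.0.1, HTSeq 0.6.1, cutadapt 1.9.1 and DESeq2, with build mm10. No source used here gives the gene annotation, whether counting used strand, or what was done with reads that map more than once. Counts of overlapping genes are uncertain for that reason, and 14 members have exons that another gene overlaps.

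SCC was compared with normal lung by the robust quasi-likelihood test of edgeR 4.0.16 (R 4.3.3), with TMM factors and no covariate, on the 13203 genes that filterByExpr passed, and p-values were adjusted over these by Benjamini-Hochberg. CPM use TMM-scaled library sizes. The SE is the size of the log2 fold change divided by the square root of F. The test was also run on counts simulated from the normal lung means at a fixed dispersion, with 200 genes changed. That run held no background signal, so it does not cover the differences between the SCC libraries. No pair of libraries of a group agreed within sampling noise (lowest chi-square per degree of freedom over genes 2.93, for SCC 3 and SCC 4, against 11.5 for the next closest pair). SCC 3 and SCC 4 were thus far closer to each other than any other pair, and both carried the high receptor signal. Whether they are independent samples was not tested. If they are not, the SDs and p-values rest on fewer independent SCC units than libraries. Leaving out either of them also keeps the other. Lengths and positions come from GENCODE M21 (GRCm38), which gave no length for 394 genes; these were left as counted in the subtraction. The receptor signal is the mean over 1437 receptor genes of CPM per kb, after the highest 2% of values were capped per library; genes then lost this rate times their exon length. The background so estimated was 3.30% to 28.3% of all counts in SCC libraries and 0.333% to 1.66% in normal ones.

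The members, lists, ratios and alternatives were chosen with earlier results of these data known. In each role the 2 members of smallest p and the tested member of largest p are given in every library, and from each further list the 2 genes of smallest p, except 1 gene that is not reported here; other genes were named after their values were seen. Alternatives were limma-voom with quality weights (limma 3.58.1), the Wald test of DESeq2 1.42.0, DESeq2 size factors, 2 other filters, no robust estimation, subsets of SCC libraries, background subtraction, a prior count of 0.5, and leaving out each library. Protein sequences were not used here.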

Additional observations from a re-analysis of the deposited data

Results flagged for a closer look

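Of 98 groups of 5 values (log2 CPM of the members and the log2 ratios, in each group of libraries), 6 held a library far from the other 4 of its group, and chance alone gives about 1 in 20. Mcm6 stood at 1.78 in normal lung 4 and at 3.77 to 4.54 in the other normal libraries. Gins1 stood at 2.03 in normal lung 3 and at -0.30 to 0.24 in the others. Orc1 stood at -0.055 in normal lung 3, which is its single count in normal lung, and at -0.30, no count, in the others. Rfc5 stood at 1.23 in normal lung 2 and at 2.62 to 3.12 in the others. Chaf1a stood at -0.30, no count, in normal lung 1 and at 2.61 to 3.32 in the others. Pole2 stood at 3.61 in SCC 5 and at 2.74 to 2.98 in the other SCC libraries.

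Counts on chemosensory receptor genes, which no comparison used as an outcome, were above normal lung in each SCC library. The lowest SCC value was 0.429 CPM per kb, and normal lung ranged over 0.0433 to 0.215.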

How the results depend on the processing

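The number of genes higher in SCC, 1645, was 5470 with no filter on low counts, 3551 with a filter at 1 CPM, 6287 with the DESeq2 Wald test, 3259 with limma-voom, 592 with SCC 2 and SCC 5 alone, 3841 with SCC 1, SCC 3 and SCC 4 alone (chosen after seeing the data) and 898 after background subtraction, and 1304 to 2207 when 1 library was left out. The number of genes lower, 1146, was 2072 (no filter), 2766 (limma-voom), 738 (SCC 2 and SCC 5) and 2927 (SCC 1, 3 and 4), with 1009 to 1473 when 1 library was left out. The 9 members higher became 15 with DESeq2, 14 with limma-voom, 1 with SCC 2 and SCC 5, and 3 after subtraction, and 7 to 10 without 1 library. The 13 other pathway genes higher became 22, 23, 5 and 4 in that order of settings. The 3 lower became 7 with no filter, 9 with limma-voom, 12 with SCC 1, 3 and 4, and 2 to 5 without 1 library (5 without SCC 5). The median of the members, 1.04, was 0.69 with no filter and 0.64 to 1.17 without 1 library (0.64 without normal lung 2, 0.71 without normal lung 5). With a prior count of 0.5 the difference in Tk1 over Tk2 was 5.41 and that in Orc1 over Orc2 was 3.97, both past the threshold (exact permutation, adjusted p = 0.0317). Without 1 library the difference was 2.13 to 3.36 for Rrm2 over Rrm2b, past the threshold without normal lung 5, 3.90 to 4.65 for Tk1 over Tk2 (without SCC 2, normal lung 4 or normal lung 5), -3.21 to -1.80 for Gmnn over Cdt1 (without SCC 2), and 1.98 to 2.77 for Orc1 over Orc2 (without normal lung 4). With SCC 2 and SCC 5 alone no ratio could pass after adjustment. The cause of these shifts was not tested. Tyms kept its call in 19 of 19 alternatives. Depth limits the low members, since 10 of the 41 did not pass the filter. No paired analysis was possible because the replicate numbers follow accession order and pair no samples.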
